A study of Mus musculus with 16 samples.

Results

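The genes described here are 10 markers of endothelial cells, the cells that line blood and lymph vessels, as measured in RNA of alveolar epithelial type II (AT2) cells of newborn mice. They were Cdh5, Pecam1, Esam, Cldn5, Kdr, Tie1, Tek, Ramp2, Egfl7 and Emcn, and were chosen by name, as every annotated array feature carrying 1 of these symbols. All 10 were on the array, with 21 of the 31439 named features tested, and each gene was represented by its brightest feature, giving 10 of 20725 genes. The RNA was hybridised to 16 single-colour Agilent arrays labelled with Cy3, 1 array per sample.

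The groups, by their titles, were 2 samples of Fgf10+/- pups kept in hyperoxia, 6 of wild-type (WT) pups kept in hyperoxia, 4 of Fgf10+/- pups kept in normoxia and 4 of WT pups kept in normoxia. Fgf10+/- pups carry 1 inactive copy of Fgf10, a growth factor that lung mesenchyme secretes to the epithelium. Hyperoxia was 85% oxygen in a chamber from postnatal day 0 to day 3, and every pup was 3 days old. The text of the series gives 4 samples per group in place of 6 and 2. The titles were followed, and the comparison of all 8 hyperoxia with all 8 normoxia arrays does not depend on the genotype labels, although its 2 sides hold different mixtures of genotypes. The number of pups per sample and the isolation of the cells were not given in the sources used here. P-values therefore measure the spread between these samples, which may in part be technical.

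Capillaries cover most of the alveolar wall, and AT2 cells make the vascular growth factor that endothelial cells need. Endothelial cells hold together through junction proteins, sense vascular growth factors through receptor kinases, and switch on a shared set of genes under transcription factors of the ETS family. AT2 cells are epithelial, and endothelial transcripts in an AT2 preparation are commonly read as a measure of RNA from other cells. Whether AT2 cells themselves carried some of these transcripts, such as Cldn5, was not tested. In a bulk sample, fewer endothelial cells and less of a transcript per endothelial cell cannot be told apart.

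Markers of AT2 cells were read at high levels on every array, which bears on the presence of AT2 cells and not on their purity or the genotype labels. Sftpc, surfactant protein C, had log2 intensities of 15.98 on both Fgf10+/- hyperoxia arrays, 15.95 to 15.98 in WT hyperoxia and 15.97 to 15.98 in each normoxia group, at the top of the scale, where it cannot separate the arrays. The mean of 10 AT2 markers was 11.06 to 12.23 in Fgf10+/- hyperoxia, 11.40 to 12.37 in WT hyperoxia, 11.45 to 12.26 in Fgf10+/- normoxia and 12.00 to 12.38 in WT normoxia. Every value below is a log2 intensity as deposited, in which a difference of 1 is a doubling, and the median of all gene means was 5.19. Alveolar type I (9.87 to 11.62), erythroid (8.27 to 11.53), mesothelial (8.29 to 10.28) and fibroblast means (7.84 to 10.14) exceeded 5.19 on every array. Smooth muscle and pericyte means (6.12 to 9.06) and leukocyte means (6.00 to 7.91) did too. Platelet (4.63 to 6.94) and thymocyte means (4.01 to 6.43) reached below it. The table carries no detection calls, and a value at background level cannot be told from a low one. WT normoxia replicate 1 stood apart in smooth muscle, pericyte and fibroblast markers, and WT normoxia replicate 4 and 3 of the 4 Fgf10+/- normoxia arrays stood apart in thymocyte markers. Counts that change without these arrays are given beside the results.

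A few reference sequences place the genes. The first 3 lines below are 300-base windows at transcription starts, 250 bases before to 50 after, from RefSeq on build GRCm38.p6, for members that rose after hyperoxia. Capitals mark GGAA, the core that ETS factors such as Erg and Fli1 recognise, on either strand, so that it also appears as TTCC. The last line is a mature microRNA processed from RNA of the Egfl7 locus and known for its high level in endothelium, with its seed (bases 2 to 8) in capitals.
Egfl7, chr2:26580833-26581132, plus strand: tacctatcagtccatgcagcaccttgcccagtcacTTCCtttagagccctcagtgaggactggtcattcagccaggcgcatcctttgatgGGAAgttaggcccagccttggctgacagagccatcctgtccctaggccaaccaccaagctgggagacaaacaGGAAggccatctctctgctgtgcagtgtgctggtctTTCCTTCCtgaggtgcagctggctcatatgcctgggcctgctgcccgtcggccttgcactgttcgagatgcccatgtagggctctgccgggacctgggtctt
Kdr, chr5:75978406-75978705, minus strand: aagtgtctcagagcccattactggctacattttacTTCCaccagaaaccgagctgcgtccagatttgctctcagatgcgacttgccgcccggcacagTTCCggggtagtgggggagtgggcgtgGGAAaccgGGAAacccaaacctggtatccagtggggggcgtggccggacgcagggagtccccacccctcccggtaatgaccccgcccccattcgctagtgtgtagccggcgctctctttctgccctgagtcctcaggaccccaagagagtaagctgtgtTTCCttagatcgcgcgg
Cldn5, chr16:18776597-18776896, plus strand: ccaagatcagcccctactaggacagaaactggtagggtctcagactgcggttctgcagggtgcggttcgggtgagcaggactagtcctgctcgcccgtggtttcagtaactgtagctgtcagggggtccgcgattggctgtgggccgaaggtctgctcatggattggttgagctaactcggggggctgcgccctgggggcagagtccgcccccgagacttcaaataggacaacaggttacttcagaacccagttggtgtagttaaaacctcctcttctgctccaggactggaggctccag
mmu-miR-126a-3p, chr2:26591402-26591423, plus strand: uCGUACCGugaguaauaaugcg

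Windows were matched for 6 of the 10 genes, 8 windows in all, since Egfl7 has 3. The core GGAA was found in 7 of these 8 windows and in 96.0% of all 32851 windows of the same length, so its presence does not set these genes apart. The Egfl7 window above holds 5 copies and the Kdr window 5, whereas the Cldn5 window holds 0. The longer form ACNGGAAG, searched on both strands and overlapping GGAA, was in 3 of the 8 windows, those of Emcn and 2 of Egfl7, against 8.15% of all windows. A match describes letters and not a bound site, and the level of the microRNA was not analysed here.

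All 10 endothelial genes had a higher mean on the 8 hyperoxia arrays than on the 8 normoxia arrays, and 4 of them rose by the test. These were Egfl7, Cldn5, Kdr and Ramp2, a secreted factor, a tight junction protein, the main receptor for vascular endothelial growth factor A (VEGFA) and a receptor subunit for adrenomedullin. Their differences were 1.14 to 1.67 in log2 units, that is 2.20-fold to 3.19-fold. The test was limma's moderated test over all 20725 genes with Benjamini-Hochberg adjustment, called at an adjusted p under 0.05. In the same comparison 14.3% of all genes were called, 6.13% as higher and 8.14% as lower. Over the 10 members the median difference was 0.82, beside a median of -0.06 over all genes, of which 42.7% were positive. At an unadjusted p under 0.05 the count was 8 of 10 members and 5665 of 20725 genes. With the genotype of the titles as a covariate, an alternative added after seeing the data, the count was again 4 and the median 0.68. The calls of Cldn5 and Ramp2 were lost without the 4 normoxia arrays highest in thymocyte markers (limma adjusted p = 0.0999 and 0.164). They were also lost with a covariate for mesenchymal markers (limma adjusted p = 0.0589 and 0.0995). Both alternatives were added after seeing the data, and Egfl7 and Kdr were called in both. The 4 arrays left out were WT normoxia replicate 4 and Fgf10+/- normoxia replicates 1, 2 and 4. That setting therefore also changes the genotype mixture and the number of normoxia arrays, and it cannot tell these apart from thymocyte RNA.

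**Figure D1:**
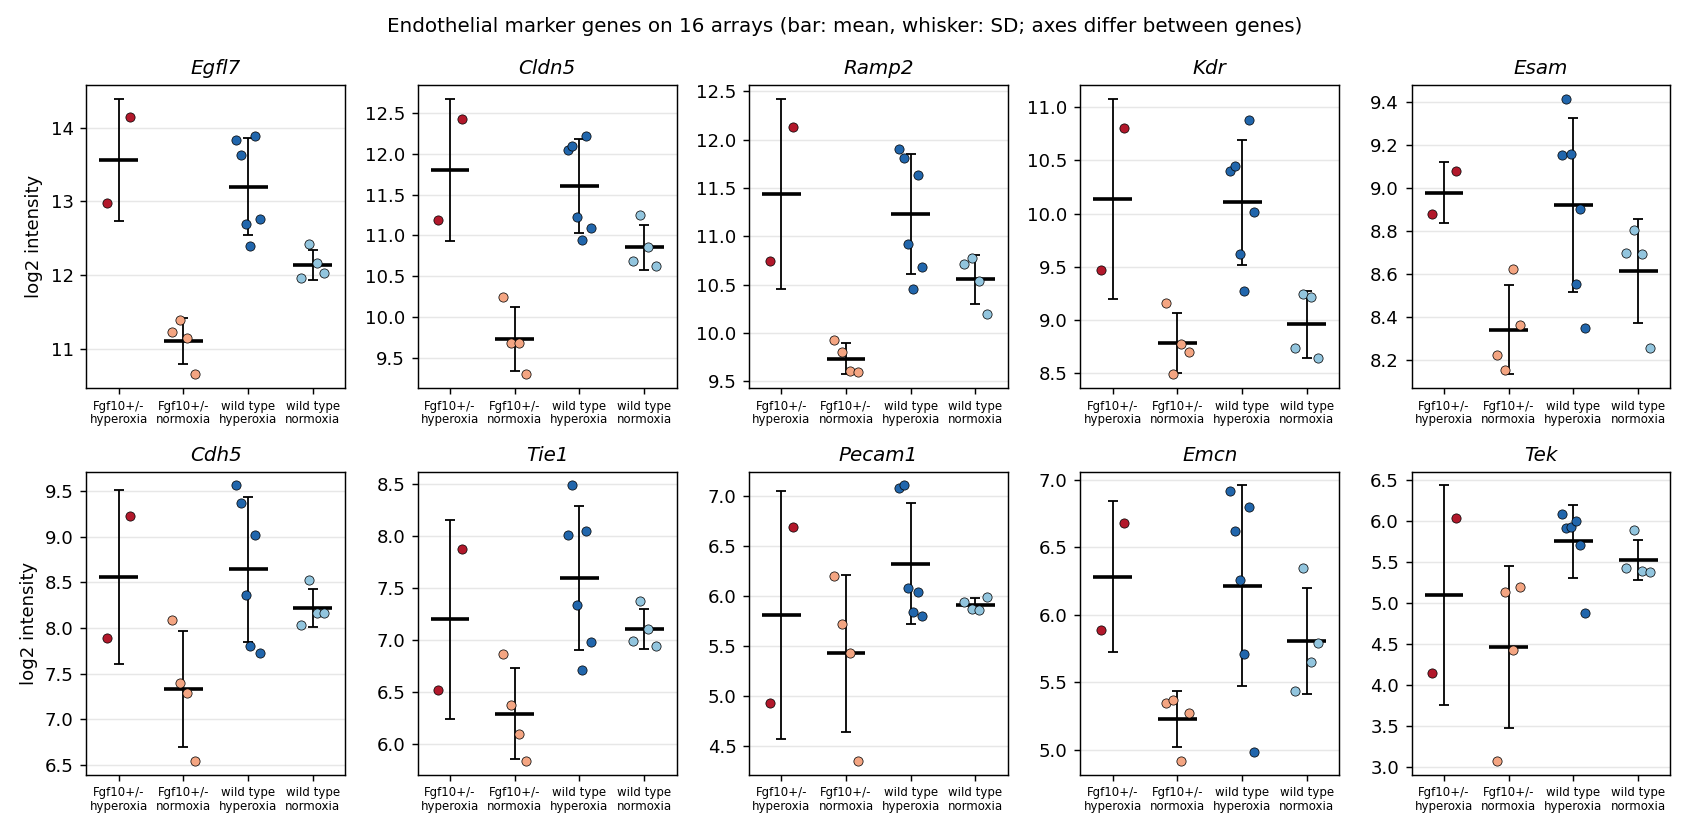
Log2 intensity (y axis, a separate range for each gene) of the 10 endothelial genes in each of the 4 groups, 1 point per array, with the group mean as a bar and the SD as a whisker (n = 2 Fgf10+/- hyperoxia, 4 Fgf10+/- normoxia, 6 WT hyperoxia, 4 WT normoxia). For Egfl7 the 2 Fgf10+/- hyperoxia arrays read 12.98 and 14.15 and the 4 Fgf10+/- normoxia arrays 10.65 to 11.38.

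Egfl7, which encodes a protein that endothelial cells secrete into the vessel wall, gave the largest difference among the 10 genes. It read 12.98 and 14.15 in Fgf10+/- hyperoxia, and 12.39 to 13.89 with a median of 13.20 in WT hyperoxia, against 11.23, 11.38, 11.15 and 10.65 in Fgf10+/- normoxia and 11.95, 12.42, 12.16 and 12.02 in WT normoxia. The oxygen conditions overlapped by 1 pair of arrays, WT hyperoxia replicate 4 at 12.39 and WT normoxia replicate 2 at 12.42, and all 4 Fgf10+/- normoxia arrays lay below every other array. The 8 hyperoxia arrays averaged 13.29 ± 0.66 and the 8 normoxia arrays 11.62 ± 0.60 (SD), a difference of 1.67 (SE 0.29, limma adjusted p = 9.14e-04).

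Among the junction and adhesion genes, Cldn5 rose and Cdh5, Pecam1 and Esam did not pass the test. Cldn5, claudin-5, seals endothelial tight junctions. It read 11.19 and 12.42 in Fgf10+/- hyperoxia, and 10.94 to 12.22 with a median of 11.63 in WT hyperoxia, against 10.25, 9.68, 9.68 and 9.30 in Fgf10+/- normoxia and 10.69, 11.24, 10.85 and 10.62 in WT normoxia. The Fgf10+/- groups did not overlap, while the WT groups did. Hyperoxia arrays averaged 11.65 ± 0.60 and normoxia arrays 10.29 ± 0.68 (SD, 8 arrays each), a difference of 1.36 (SE 0.29, limma adjusted p = 0.0047).

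Cdh5, VE-cadherin of the adherens junction, read 7.89 and 9.23 in Fgf10+/- hyperoxia, and 7.73 to 9.56 with a median of 8.70 in WT hyperoxia, against 8.09, 7.40, 7.29 and 6.54 in Fgf10+/- normoxia and 8.03, 8.52, 8.17 and 8.16 in WT normoxia. The oxygen conditions overlapped in both genotypes, and WT hyperoxia replicates 1, 2 and 5 and Fgf10+/- hyperoxia replicate 2 were the 4 highest of the 16 arrays. The difference over both genotypes was 0.85 (SE 0.32, limma adjusted p = 0.0876).

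Esam, an adhesion molecule of endothelial tight junctions, read 8.88 and 9.08 in Fgf10+/- hyperoxia, and 8.35 to 9.42 with a median of 9.03 in WT hyperoxia, against 8.15 to 8.62 in Fgf10+/- normoxia and 8.26 to 8.80 in WT normoxia. It did not overlap in Fgf10+/- pups and overlapped in WT pups. It averaged 8.94 ± 0.35 on hyperoxia and 8.48 ± 0.25 on normoxia arrays (SD, 8 each), a difference of 0.46 (limma adjusted p = 0.0663).

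Pecam1, the adhesion molecule CD31, read 4.93 and 6.68 in Fgf10+/- hyperoxia, and 5.80 to 7.10 with a median of 6.06 in WT hyperoxia, against 4.35 to 6.20 in Fgf10+/- normoxia and 5.85 to 5.99 in WT normoxia. The 4 WT normoxia arrays were close together, and WT hyperoxia replicates 1 and 2 lay highest. Pecam1 averaged 6.19 ± 0.73 on hyperoxia and 5.67 ± 0.58 on normoxia arrays, a difference of 0.52 (limma adjusted p = 0.282). Pecam1 had a second feature, with a difference of 0.63 (limma adjusted p = 0.148 over all features), so its 2 features gave the same direction and neither passed the test.

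Among the receptors, Kdr and Ramp2 rose and Tie1 and Tek did not pass. Kdr, the VEGFA receptor VEGFR2, read 9.47 and 10.80 in Fgf10+/- hyperoxia, and 9.28 to 10.88 with a median of 10.21 in WT hyperoxia, against 9.16, 8.49, 8.77 and 8.70 in Fgf10+/- normoxia and 8.73, 9.24, 9.21 and 8.64 in WT normoxia. It was the 1 member of the 10 whose 8 hyperoxia arrays all lay above all 8 normoxia arrays, by a gap between 9.28 and 9.24, a separation in this direction that 1.84% of all genes showed. Hyperoxia arrays averaged 10.11 ± 0.61 and normoxia arrays 8.87 ± 0.29 (SD, 8 arrays each), a difference of 1.25 (SE 0.23, limma adjusted p = 0.0014).

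Kdr was covered by 11 features, all read on the same RNA. Whether they hold separate probes was not examined, so their likeness is not separate evidence for the result. Of the 11 features, 10 moved together, each with a correlation of at least 0.97 with the brightest over the 16 arrays. Their differences between hyperoxia and normoxia were 1.23 to 1.34 (limma adjusted p 5.53e-04 to 0.00318). The remaining feature averaged 8.12 on hyperoxia and 8.09 on normoxia arrays, a difference of 0.03 (adjusted p = 0.936), and its correlation with the brightest feature was 0.27. All points of these correlations share the same 16 arrays.

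**Figure D2:**
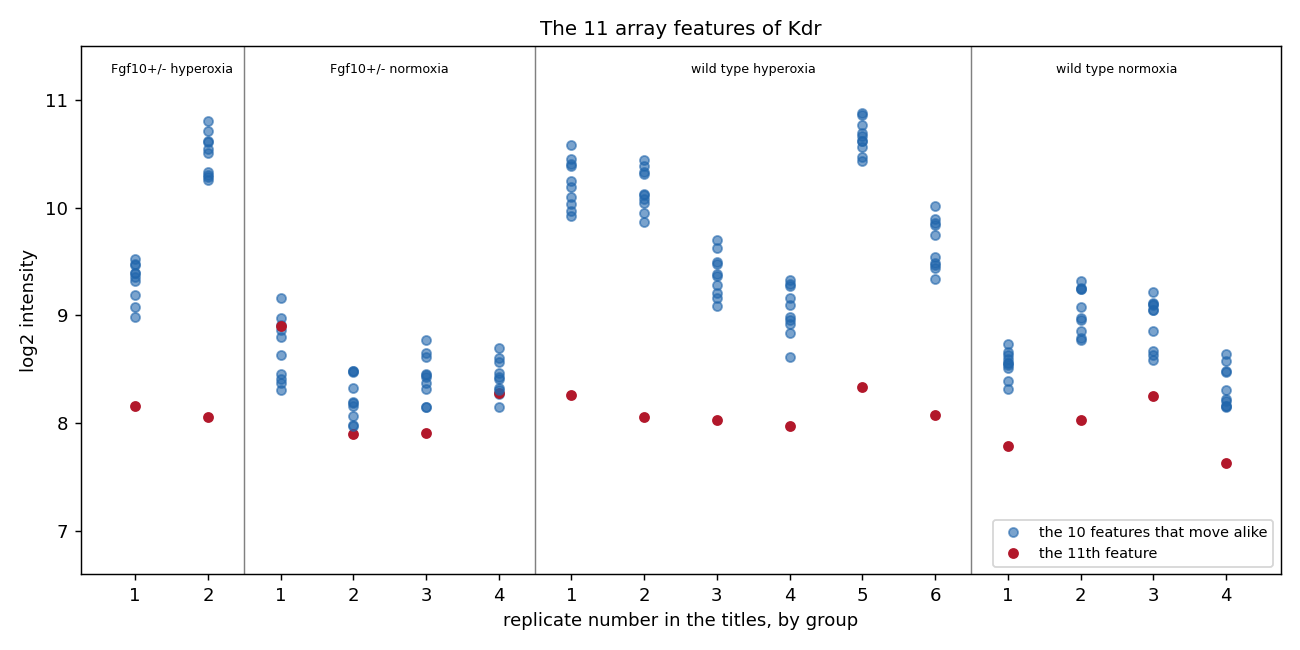
Log2 intensity (y axis) of the 11 features of Kdr on each array (x axis, replicate numbers of the titles within each group), with the 10 features that move together in blue and the remaining one in red. The blue features differ by 1.23 to 1.34 between hyperoxia and normoxia and the red one by 0.03.

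Ramp2 encodes the subunit that makes the calcitonin receptor-like receptor respond to adrenomedullin. It read 10.74 and 12.13 in Fgf10+/- hyperoxia, and 10.46 to 11.90 with a median of 11.27 in WT hyperoxia, against 9.92, 9.80, 9.61 and 9.59 in Fgf10+/- normoxia and 10.71, 10.77, 10.53 and 10.20 in WT normoxia. The Fgf10+/- groups did not overlap, while WT hyperoxia replicates 4 and 6 lay within the WT normoxia range. Hyperoxia arrays averaged 11.28 ± 0.65 and normoxia arrays 10.14 ± 0.48 (SD), a difference of 1.14 (SE 0.27, limma adjusted p = 0.00796).

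Tie1 and Tek are the receptor kinases of the angiopoietin system, which steadies mature vessels. Tie1 read 6.52 and 7.88 in Fgf10+/- hyperoxia, and 6.71 to 8.49 with a median of 7.68 in WT hyperoxia, against 5.83 to 6.86 in Fgf10+/- normoxia and 6.94 to 7.37 in WT normoxia. All 4 Fgf10+/- normoxia arrays lay below all 4 WT normoxia arrays. Tie1 averaged 7.50 ± 0.71 on hyperoxia and 6.70 ± 0.54 on normoxia arrays (SD, 8 each), a difference of 0.80 (limma adjusted p = 0.075).

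Tek, the angiopoietin receptor itself, read 4.15 and 6.05 in Fgf10+/- hyperoxia, and 4.88 to 6.10 with a median of 5.93 in WT hyperoxia, against 3.07, 5.14, 4.43 and 5.20 in Fgf10+/- normoxia and 5.38 to 5.89 in WT normoxia. Its levels lay near the median of all gene means, and in both Fgf10+/- groups it had the largest SD of the 10 genes, 1.34 in hyperoxia and 0.99 in normoxia. Tek averaged 5.59 ± 0.70 on hyperoxia and 4.99 ± 0.88 on normoxia arrays, a difference of 0.60 (limma adjusted p = 0.303).

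Emcn, endomucin, is a sialomucin of the capillary and venous surface. It read 5.89 and 6.68 in Fgf10+/- hyperoxia, and 4.99 to 6.92 with a median of 6.44 in WT hyperoxia, against 4.92 to 5.37 in Fgf10+/- normoxia and 5.44 to 6.35 in WT normoxia. The Fgf10+/- groups did not overlap, while WT hyperoxia replicate 6 lay below every WT normoxia array. It averaged 6.23 ± 0.66 on hyperoxia and 5.52 ± 0.42 on normoxia arrays, a difference of 0.71 (limma adjusted p = 0.0752).

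Within WT pups 0 of 10 members passed limma's test, where 3.13% of all genes were called, 1.77% as higher and 1.36% as lower. At an unadjusted p under 0.05 the count was 4 of 10 members and 3774 of 20725 genes. The members' median difference was 0.46, with a range of 0.23 to 1.15, and that of all genes was -0.08. Kdr had the largest difference, 1.15 (SE 0.31, limma adjusted p = 0.0538), and was the 1 member whose WT groups did not overlap, which was so for 3.13% of all genes as higher and 4.02% as lower. Egfl7 followed with 1.06 (SE 0.31, adjusted p = 0.0776).

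Within Fgf10+/- pups, with 2 hyperoxia arrays, Egfl7, Cldn5 and Ramp2 rose by limma's test, where 2.45% of all genes were called, 1.18% as higher and 1.26% as lower. Egfl7 was higher by 2.46 (SE 0.42, adjusted p = 0.00714), Cldn5 by 2.08 (SE 0.41, adjusted p = 0.0174) and Ramp2 by 1.71 (SE 0.42, adjusted p = 0.0421), a call that Ramp2 lost in 14 of 28 alternatives. With only the Fgf10+/- groups in the fit, 1 member, Egfl7, was called. The median over the 10 members was 1.14, beside -0.04 over all genes, and 7 of 10 members and 3462 of 20725 genes had an unadjusted p under 0.05. The groups of 6 members did not overlap, all with hyperoxia higher, as for 12.4% of all genes, and 13.6% of all genes were separated with hyperoxia lower. Without Fgf10+/- hyperoxia replicate 2 the count called was 0, the median was 0.61, and Pecam1 and Tek had differences of -0.49 and -0.31. Leaving out the 4 normoxia arrays highest in thymocyte markers removes 3 of the 4 Fgf10+/- normoxia arrays. The differences against the 1 array left were 2.42 for Egfl7, 2.12 for Cldn5 and 1.83 for Ramp2, with 0 members and 14 of all genes called, so this count says little about the members. The 2 hyperoxia arrays differed widely, with member means of 8.26 and 9.51.

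The Fgf10+/- and WT comparisons use separate arrays, and whether their differences differ was tested as an interaction. It was called for 0 of the 10 members by limma, where 0.00965% of all genes were called, and 2 of 10 members and 852 of 20725 genes had an unadjusted p under 0.05. The interaction, as the Fgf10+/- difference minus the WT difference, had a median of 0.53 over the members and ranged from -0.03 to 1.40, beside a median of 0.04 over all genes. The member median was 1.22 without Fgf10+/- hyperoxia replicate 1 and 0.18 without replicate 2, so its size rests on these arrays.

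In normoxia all 10 members had a lower mean in Fgf10+/- than in WT pups, but 0 of 10 passed limma's test, where 0.00965% of all genes were called, all of them as higher. The member differences ran from -1.13 for Cldn5 to -0.18 for Kdr, with a median of -0.82, beside -0.01 over all genes. At an unadjusted p under 0.05, 5 members were counted, among 1250 of all genes. For 6 members (Cldn5, Egfl7, Emcn, Ramp2, Tek and Tie1) every Fgf10+/- array lay below every WT array, as was so for 2.04% of all genes, and 1.42% were separated with Fgf10+/- higher. Egfl7 averaged 11.10 ± 0.32 in Fgf10+/- and 12.14 ± 0.21 in WT normoxia (SD, 4 arrays each), a difference of -1.03 with a 95% interval of -1.76 to -0.30. Of the markers of other cells limma called 0 in this comparison. All 8 smooth muscle and pericyte markers had a lower mean in Fgf10+/- (median -0.88, 1 at an unadjusted p under 0.05), while all 8 alveolar type I markers (median 0.48, 2 at that p), all 4 mesothelial markers (median 0.50, 2) and 9 of 10 thymocyte markers (median 0.36, 0) had a higher one. Their part in the endothelial values was not tested. With the mesenchymal covariate the member median was -0.67.

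In hyperoxia limma called 0 of 10 members between genotypes and 0% of all genes. The genotypes overlapped for all 10 members, where 3.67% of all genes were separated with Fgf10+/- higher and 3.31% with Fgf10+/- lower. The member differences, Fgf10+/- minus WT, ran from -0.66 to 0.37 with a median of 0.04, beside 0.02 over all genes, and 0 members and 906 of 20725 genes had an unadjusted p under 0.05. The member median was 0.53 without Fgf10+/- hyperoxia replicate 1 and -0.56 without replicate 2, so its direction turned with 1 array. With 2 Fgf10+/- arrays the intervals were wide, and for Egfl7 the interval ran from -0.48 to 1.21. The comparisons within hyperoxia, within normoxia and within each genotype share groups, so they are not separate evidence.

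**Figure D3:**
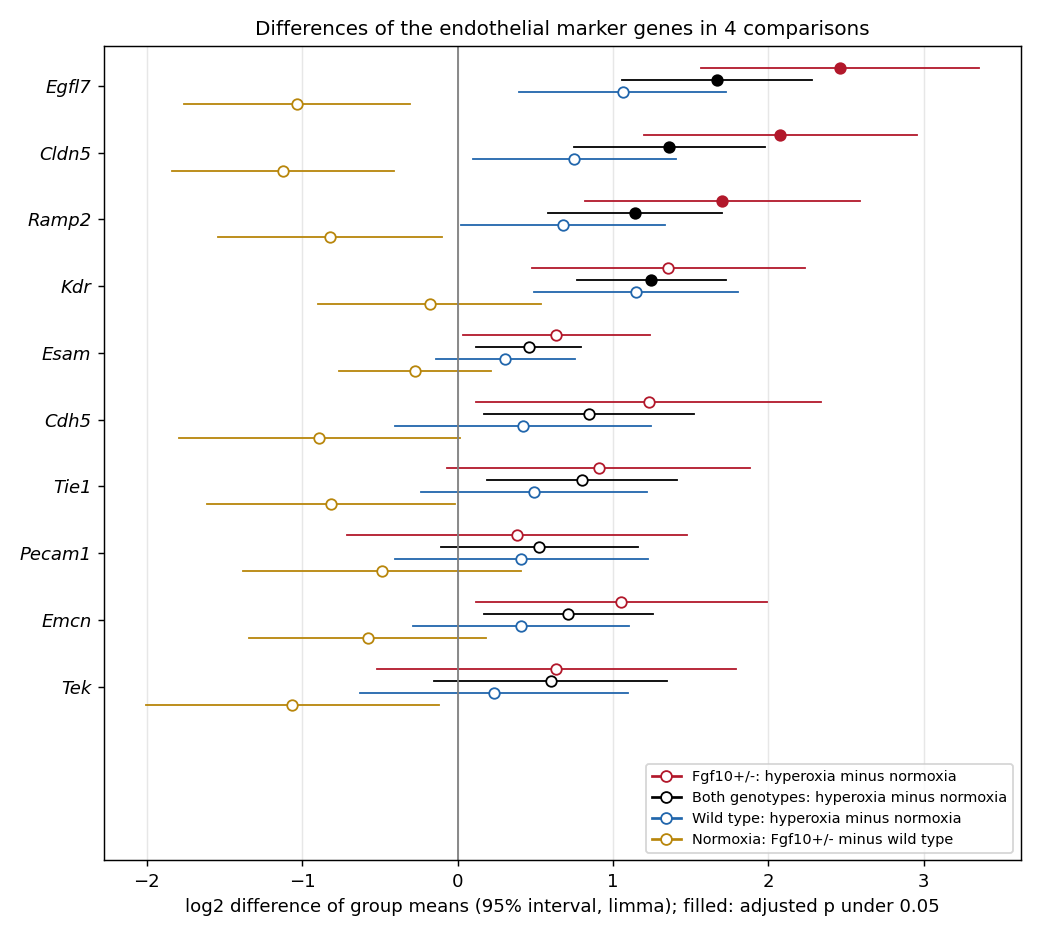
Difference of group means in log2 units (x axis) with its 95% interval from limma for each of the 10 endothelial genes (y axis) in 4 comparisons, filled where the adjusted p is under 0.05. Egfl7, Cldn5 and Ramp2 are filled over both genotypes and within Fgf10+/- pups, Kdr over both genotypes, and in normoxia all 10 genes lie below 0 for Fgf10+/- minus WT.

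Averaging the 10 members on each array gave a summary of endothelial marker RNA per sample. It was 8.26 and 9.51 in Fgf10+/- hyperoxia and 9.50, 9.49, 8.76, 8.37, 9.31 and 8.33 in WT hyperoxia, against 7.84, 7.75, 7.60 and 7.38 in Fgf10+/- normoxia and 8.26, 8.65, 8.36 and 8.20 in WT normoxia. The Fgf10+/- normoxia arrays were the 4 lowest of the 16. WT hyperoxia replicates 1, 2 and 5 and Fgf10+/- hyperoxia replicate 2 were the 4 highest, and the other 4 hyperoxia arrays reached from 8.26 to 8.76, close to the WT normoxia arrays.

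The levels of most members varied together from array to array. Over the 16 arrays the 45 pairs of members had a median correlation of 0.79, with a range of 0.39 to 0.98, and after group means were removed the median was 0.76. Ramp2 was most like the mean of the other 9 (0.98) and Tek least (0.56, and 0.26 within groups). These values are descriptive, since all pairs share the same arrays and scaling.

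Of 10019 named genes with a mean above the median, the 8 most like the member mean were Plvap, Ecscr, Rasip1, Icam2, Pcdh17, Cd93, Ptprb and Eng, with correlations of 0.98 to 0.96 over 16 arrays. Plvap, the diaphragm protein of fenestrated and venous endothelium, had the highest (0.98, and 0.96 within groups). It averaged 9.68 on hyperoxia and 8.77 on normoxia arrays, a difference of 0.91 (limma adjusted p = 0.0237). These 8 genes were picked for likeness to the member mean on the same arrays. A similar oxygen difference follows from that choice and is not separate evidence.

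Of 25 further surface and signalling genes, 18 rose and 1 fell in hyperoxia over both genotypes, with a median of 1.01 (4 rose without the 4 normoxia arrays highest in thymocyte markers, and 3 with a covariate for mesenchymal markers). Over all genes 6.13% were called as higher and 8.14% as lower. In those alternatives 978 and 1457 of 20725 genes were called, in the same order. Robo4, a guidance receptor of endothelium, averaged 9.48 on hyperoxia and 7.46 on normoxia arrays, a difference of 2.02 (limma adjusted p = 1.76e-04). Mmrn2, an endothelial matrix protein that binds VEGFA, averaged 10.41 on hyperoxia and 8.51 on normoxia arrays, a difference of 1.89 (limma adjusted p = 3.72e-05). The VEGFA receptor Flt1 was higher by 1.34, the scavenger receptor Stab1 by 1.50, the BMP receptor Acvrl1 by 1.35 and the nitric oxide synthase Nos3 by 0.73, each past the threshold. Arhgef15, an exchange factor of endothelial cells, fell by 0.74, and Vwf, von Willebrand factor, which is richest in larger vessels, did not pass (-0.30, adjusted p = 0.497).

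The further genes that rose covered several roles. The coagulation cofactor Thbd was higher by 1.24, the adhesion molecule Icam2 by 1.24, the lumen regulator Rasip1 by 1.18, the sialomucin Cd34 by 1.18 and the lipase carrier Gpihbp1 of capillaries by 1.09. The phosphatase Ptprb, which acts on Tek, was higher by 1.05, the TGF-beta co-receptor Eng by 0.96 and the sphingosine phosphate receptor S1pr1 by 0.95. Within WT pups 3 of the 25 rose, Mmrn2 (1.46), Robo4 (1.45) and Stab1 (1.41), and the list median was 0.57. Within Fgf10+/- pups 9 rose, with a list median of 1.54, among them Robo4 (2.67), Mmrn2 (2.48) and Tmem100 (2.37), a BMP target of the lung endothelium. The shares of all genes called as higher were 1.77% within WT and 1.18% within Fgf10+/- pups.

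In normoxia 23 of these 25 genes had a lower mean in Fgf10+/- than in WT pups, with a median of -0.71. Limma called 0 of them, 14 had an unadjusted p under 0.05, and for 13 every Fgf10+/- array lay below every WT array. Over all genes, 1250 of 20725 had an unadjusted p under 0.05. Groups were separated for 2.04% of all genes with Fgf10+/- lower and for 1.42% with Fgf10+/- higher. Tmem100 averaged 4.78 ± 0.75 in Fgf10+/- and 6.13 ± 0.22 in WT normoxia (SD, 4 arrays each), a difference of -1.35 (limma adjusted p = 0.464). Robo4 averaged 6.93 ± 0.18 in Fgf10+/- and 7.99 ± 0.22 in WT normoxia, a difference of -1.06 (adjusted p = 0.618).

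Lists for vessel types gave different counts, where 6.13% of all genes were called as higher and 8.14% as lower. In a list of 6 genes a count of 1 says little beside these shares. Of 5 measured genes of aerocytes, the capillary cells that lie against alveolar type I cells, 3 rose, with a median of 1.09 over the list. These were Tbx2 (2.13), the ligand gene Apln (1.88) and the carbonic anhydrase Car4 (0.70). Of 6 arterial genes only the connexin Gja5 rose (1.03, list median -0.04), and of 6 venous genes only the adhesion molecule Vcam1 (1.31, list median 0.16). Whether these lists differ from each other was not tested, nor was which cells carried their transcripts. The aerocyte count was 1 without the arrays highest in thymocyte markers and 2 with the mesenchymal covariate. The arterial and venous counts were 0 in both, and 978 and 1457 of 20725 genes were called, in the same order.

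Of 16 endothelial transcription factors, Tal1 (0.99), Gata2 (0.98) and Nr2f2 (0.91) rose and 13 did not pass, with a list median of 0.30. Over all genes 6.13% were called as higher and 8.14% as lower. None rose without the arrays highest in thymocyte markers (0 of 16 by limma) or with the mesenchymal covariate. In those alternatives 978 and 1457 of 20725 genes were called. Which cells carried the transcripts of these factors was not tested. Erg and Fli1, the ETS factors for which the windows above were marked, differed by 0.25 (limma adjusted p = 0.46) and 0.38 (adjusted p = 0.487). Of 3 measured lymphatic genes, Lyve1, a hyaluronan receptor that lung capillaries and some macrophages also carry, rose by 1.87 (adjusted p = 3.87e-04). It also rose by 2.50 within Fgf10+/- pups (adjusted p = 0.00758) and by 1.30 within WT pups (adjusted p = 0.0375).

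Of 10 ligands of the endothelial receptors 1 rose and 1 fell, with a median of 0.04. Over all genes 6.13% were called as higher and 8.14% as lower, so these counts were near the shares of all genes. Without the arrays highest in thymocyte markers 0 rose and 0 fell by limma, with a median of -0.11, and 978 of 20725 genes were called. Vegfa, the ligand of Kdr and Flt1 that alveolar epithelium produces, averaged 11.59 ± 0.60 in Fgf10+/- hyperoxia and 10.87 ± 0.49 in WT hyperoxia, against 11.49 ± 0.43 in Fgf10+/- normoxia and 10.50 ± 0.60 in WT normoxia (SD), a difference over both genotypes of 0.06 (SE 0.30, limma adjusted p = 0.927). Between genotypes, Vegfa was higher in Fgf10+/- than in WT pups by 0.99 in normoxia and by 0.71 in hyperoxia, and limma called neither difference. Vegfa was also counted among the 8 alveolar type I markers. Over both genotypes Vegfd rose by 1.92 (adjusted p = 0.00893) and Pgf, placental growth factor, fell by 0.90 (adjusted p = 0.0135). Adm, the ligand for the receptor that Ramp2 completes, differed by -0.59 (adjusted p = 0.103) and its partner Calcrl by 0.02.

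**Figure D4:**
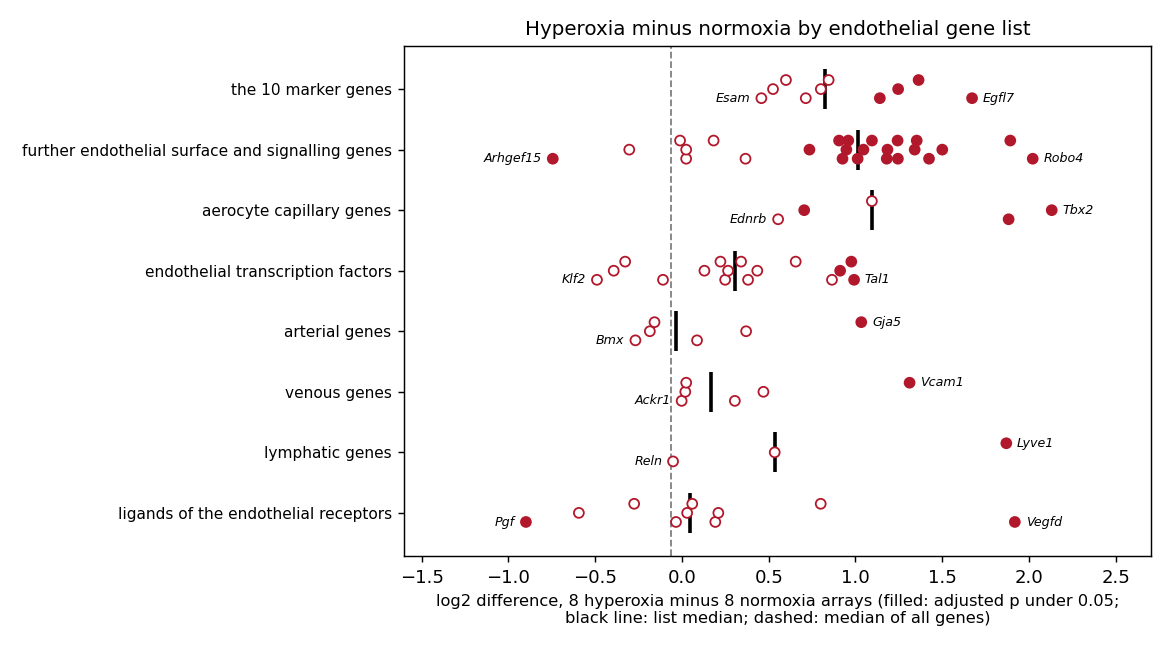
Log2 difference of the 8 hyperoxia minus the 8 normoxia arrays (x axis) for each measured gene of 8 endothelial lists (y axis), filled where the adjusted p is under 0.05, with the list median as a black line and the median of all genes as a dashed line at -0.06. The list medians run from -0.04 for arterial genes to 1.09 for aerocyte genes, with the 10 markers at 0.82.

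Some markers of other non-epithelial cells also differed between oxygen conditions. Over all genes 6.13% were called as higher and 8.14% as lower, so 1 call in a list of 4 to 10 genes says little about that list. Of 8 smooth muscle and pericyte markers 5 rose in hyperoxia (median 1.05), led by Tagln (1.87) and Acta2 (1.68). The count was 7 without WT normoxia replicate 1 and 0 without the arrays highest in thymocyte markers. In those settings 3124 and 978 of 20725 genes were called, in the same order. The second setting keeps WT normoxia replicate 1, whose smooth muscle and pericyte mean of 9.06 was the highest of the 16 arrays. Of 8 fibroblast markers 1 rose, Tcf21 (1.85), and 0 without the arrays highest in thymocyte markers. The smooth muscle and pericyte mean ran from 7.72 to 7.77 in Fgf10+/- hyperoxia and 7.41 to 8.81 in WT hyperoxia, against 6.12 to 6.75 in Fgf10+/- normoxia and 6.45 to 9.06 in WT normoxia. Among the lists of other cells, 1 of 6 platelet markers rose (Pf4, 1.46), while 1 of 8 leukocyte markers (Cd3e), 1 of 4 mesothelial markers (Upk3b) and 3 of 10 thymocyte markers fell. Of 5 erythroid markers limma called 0, with 0 at an unadjusted p under 0.05 and a median of 0.44, and Alas2, the heme synthesis enzyme of red cell precursors, differed by 1.19. Without the arrays highest in thymocyte markers 0 platelet, leukocyte, mesothelial, thymocyte and AT2 markers were called. Of 10 AT2 markers 1 fell, Sftpa1 (-0.81, adjusted p = 0.0473), and 0 without WT normoxia replicates 1 and 4. The medians were -0.26 for AT2 and -0.03 for alveolar type I markers, of which 0 of 8 were called by limma, with 0 at an unadjusted p under 0.05. The part of these lists in the endothelial differences was not tested as a cause.

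With the mean of the fibroblast and smooth muscle lists as a covariate, an alternative added after seeing the data, 2 of the 10 members (Egfl7 and Kdr) were called over both genotypes, the median was 0.54, and 3 of the 25 further endothelial genes rose. Thymocyte markers averaged 4.27 to 4.31 in Fgf10+/- hyperoxia and 4.01 to 4.42 in WT hyperoxia, against 4.25 to 6.38 in Fgf10+/- normoxia and 4.47 to 6.43 in WT normoxia. Without the 4 normoxia arrays whose thymocyte mean was above 5, the same 2 members were called, all 10 members had a higher mean in hyperoxia, and the median was 0.63. Of these 4 arrays 3 were Fgf10+/-, so the genotype mixture changed as well. In that setting 978 of all genes were called, in place of 2957, and 4 of the 25 further endothelial genes rose.

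**Figure D5:**
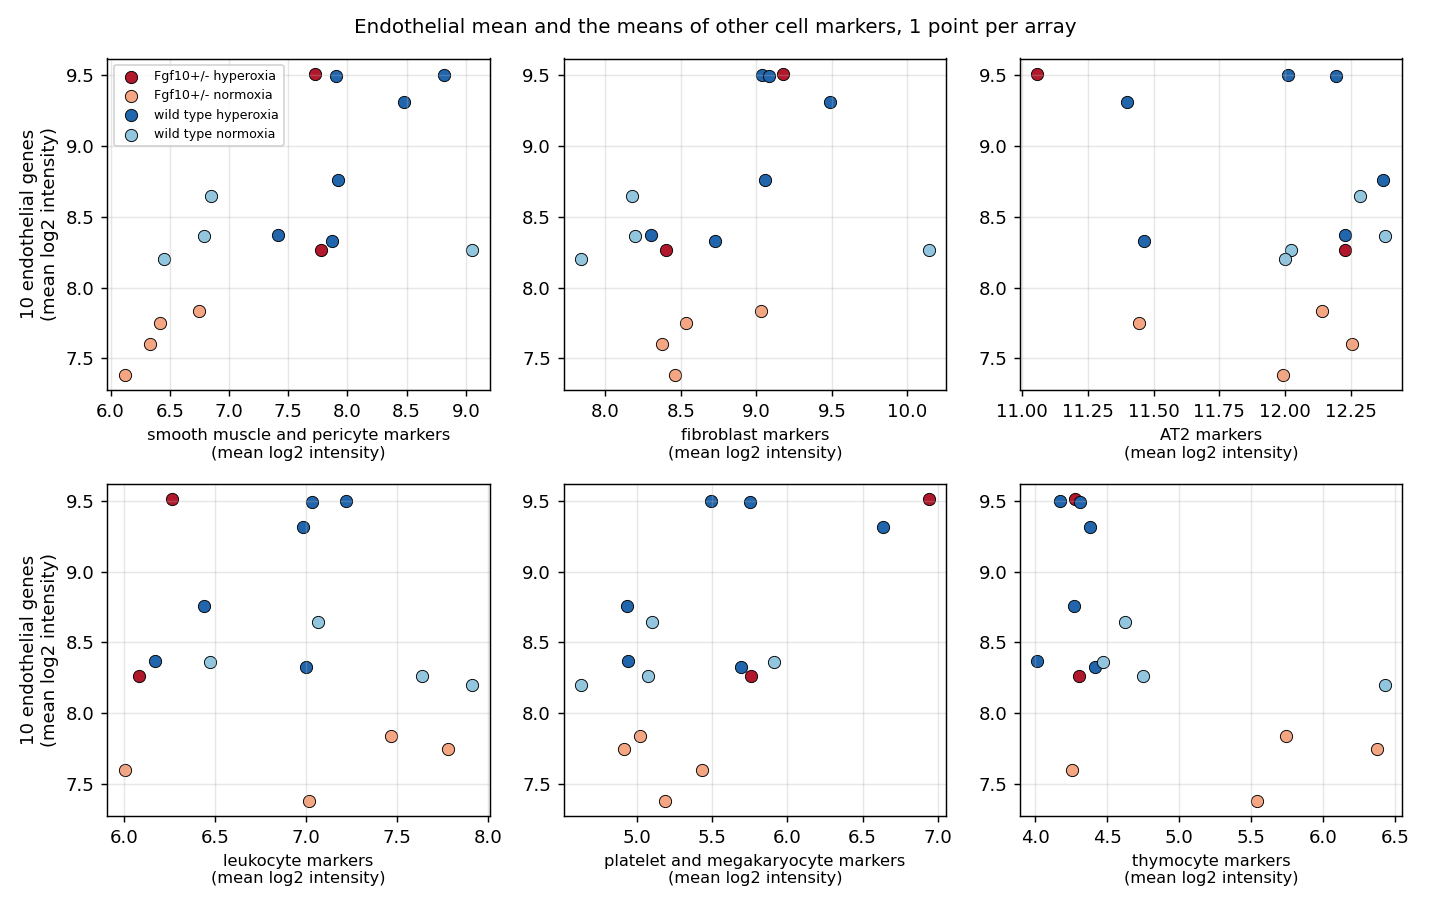
Mean log2 intensity of the 10 endothelial genes (y axis) against the mean of 6 other marker lists (x axes), 1 point per array, coloured by group. The 4 Fgf10+/- normoxia arrays lie lowest, at 7.38 to 7.84, and 4 hyperoxia arrays highest, at 9.31 to 9.51, while WT normoxia replicate 1 has a smooth muscle mean of 9.06 at an endothelial mean of 8.26.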

How the data were processed

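The deposited table held 1 value per array feature and sample, taken to be log2 intensities from their range (-0.40 to 15.98); the authors had already brought the arrays to 1 distribution, since sorted values differed by at most 0.20 between arrays. Software, background correction and log base were not given in the sources used here. Of 62976 features, 65 with missing values were left out. The platform annotation gave 1 symbol to 31465 features, none to 31511 and several to 0, and symbols were updated through RefSeq (29036 by accession, 2075 by symbol, 349 by synonym, 5 kept). No value column was left unused, and no slide or scan label was given, so such batches were not tested. Precision is limited by the 16 arrays.

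Samples were grouped by their titles. Each gene took its feature with the highest mean over 16 arrays. Differences were fitted to the deposited log2 values, with no further scaling, by linear models and eBayes moderation in limma 3.58.1 (R 4.3.3). One fit set the 8 hyperoxia against the 8 normoxia arrays. Another, of 4 group means, gave the oxygen difference per genotype, the genotype difference per oxygen condition and the interaction. P-values were adjusted by Benjamini-Hochberg over 20725 genes (31439 features for single features), with calls at 0.05. The fit was tested on simulated data. Figures were drawn with matplotlib 3.10.9.

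The members, gene lists and tests were chosen with earlier results of these data known. Named genes were all members, the list genes called in any comparison, or otherwise the 2 with the smallest p per list, and the 8 genes most correlated with the member mean, without predicted or clone-named genes. Erg, Fli1, Vwf, Vegfa, Adm, Calcrl and Sftpc were named after their values were seen. Some genes of the lists were not analysed here. Alternatives were median centring, quantile normalization, the mean of a gene's features, a minimum mean of 6, an intensity trend with robust spread, array weights, only the groups compared, the replicate number as a block and each array left out. Added after seeing the data were the 2 sets of arrays left out and the covariates for mesenchymal markers, AT2 markers and genotype.

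Deviations of same-numbered samples from their group means were weakly correlated (18 pairs, correlations of -0.16 to 0.24, 4 over 0.1). Of 16 samples, 7 correlated best with a sample of their own number, and no chance level was worked out for this count. The numbers were not taken to pair samples in the main fit, and the replicate block was run as an alternative.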

Additional observations from a re-analysis of the deposited data

Results flagged for a closer look

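In 6 of 81 groups of 4 or 6 arrays tested, 1 array lay far from the others for its group's range by Dixon's criterion, which chance reaches in about 1 of 20 groups. For Tek, the lowest WT hyperoxia array read 4.88 and the highest WT normoxia array 5.89. The lymphatic mean of 1 Fgf10+/- normoxia array, the lowest of its group, was 4.67. Among WT normoxia arrays, replicate 1 had the highest fibroblast mean, 10.14, and the highest smooth muscle and pericyte mean, 9.06, while replicate 4 had the highest thymocyte mean, 6.43. Without WT normoxia replicates 1 and 4, an alternative added after seeing the data, the count over both genotypes was again 4 of 10 members, with a median difference of 0.92.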

How the results depend on the processing

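Over both genotypes each of the 10 members kept its direction in every alternative in which it was measured. With genes of a mean under 6 left out, 7 members and 8299 genes were measured, in every comparison. With each array left out in turn, 4 to 6 members were called over both genotypes. The count was 2 without the 4 normoxia arrays highest in thymocyte markers, 3 of which were Fgf10+/-, and 2 with the mesenchymal covariate. Both were added after seeing the data, and Cldn5 and Ramp2 lost their calls in both. Within WT pups the count was 1 with median centring, 1 with quantile normalization, 1 with an intensity trend and robust spread, 2 without genes of a mean under 6, and 0 to 2 with each array left out, 2 being without WT hyperoxia replicate 4. Within Fgf10+/- pups it was 1 with only the groups compared, 1 with the replicate block, 0 without the thymocyte-high arrays (1 normoxia array left, 14 of all genes called) and 0 to 3 with each array left out, 0 being without Fgf10+/- hyperoxia replicate 2, where Pecam1 (-0.49) and Tek (-0.31) reversed, against 1.26 and 1.58 without replicate 1; the lone array is then assumed to vary like the other groups. Ramp2 lost its call there in 14 of 28 alternatives. Counts for both genotype comparisons and the interaction were 0 under every alternative. The replicate block gave 4 members over both genotypes and 0 within WT, and 7 of 16 samples correlated best with a sample of their own number. All genes called over both genotypes numbered 1712 with the block, 1457 with the mesenchymal covariate and 978 without the thymocyte-high arrays, in place of 2957, and within WT 216 and within Fgf10+/- 103 with the block, in place of 649 and 507. The replicate block also left 0 venous genes, AT2 markers and fallen ligands called over both genotypes. Median centring moved the median of all genes over both genotypes to 0.04, in place of -0.06, and that of the members to 0.92, with 6 called. The 11th Kdr feature did not follow the others; the cause was not tested.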
